A study of Rattus norvegicus with 24 samples.

Results

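Cytokines, chemokines and their receptors were examined in the quadriceps muscle of rats that had or had not been trained on a treadmill, with or without catgut embedded at acupoints. The set holds the genes that the deposited annotation assigns to the KEGG pathway of cytokine-cytokine receptor interaction. Of 226 such rows, 10 were left out by name (Ccl2, Ccl7, Cxcl1, Il6, Il1b and Lif are among the names on that list), and 216 genes of the 21067 in the table remained. The rule that chose them used no measured value, but the choice was made with earlier results of these data known. A gene entered the tests where its mean over 24 libraries was at least 0.1 FPKM (fragments per kilobase of transcript, scaled to the mapped fragments of the library), which 128 of the 216 reached, among 14772 genes tested in all.

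Cytokines are secreted or membrane-bound proteins that cells use to signal over short distances. Chemokines guide the movement of leukocytes through receptors coupled to G proteins, the class I and class II cytokines signal through receptors paired with JAK kinases and STAT factors, the TNF superfamily signals through NF-kB and death domains, and the TGF-beta, BMP and activin ligands signal through serine and threonine kinase receptors and SMAD factors. In skeletal muscle these proteins are made by the fibres as well as by resident macrophages, fibroblasts and vessel cells, and they are known for their part in repair, regeneration and the control of muscle mass.

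The animals were Sprague-Dawley rats, 6 weeks old at the start, and each of the 4 groups had 6 of them. The control group, labelled blank, did not train. The treadmill group trained with rising load for 7 weeks and then ran to exhaustion. In the catgut 1 group a collagen thread was embedded at the acupoints Bai Hui, Han Gou, Qian Shen, Qiang Feng, Xie Qi and Yang Wa, and the catgut 2 group received the same points plus Fei Shu. After a week of recovery both catgut groups followed the same training and ran to exhaustion. No group received a thread without training. The methods give equal numbers of males and females in each group, while the labels state no sex.

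Each library held between 45945938 and 78278080 deposited counts. The commonest counts above 0 were 4 and 8, so a count of 12 was taken as the equivalent of 3 fragments and used as the limit of detection. Muscle fibre markers summed to between 62031 and 85643 FPKM across the libraries, so the labelled tissue was borne out in each. Summed macrophage markers ranged from 13.1 to 75.4 FPKM except in treadmill replicate 2, at 127 FPKM. Summed liver markers were 237 FPKM in control replicate 2 and 363 FPKM in treadmill replicate 3, against 9.9 to 50.3 FPKM in the other libraries. Transcripts of Y-linked genes were present in 11 libraries, namely replicates 4, 5 and 6 of the control, treadmill and catgut 1 groups but only replicates 1 and 5 of the catgut 2 group. Control replicate 4 and treadmill replicate 2 stood apart in the cytokine genes. Each held the highest value of all 24 libraries for 34 of the 128 tested members (26.6%), against 18.3% of all tested genes for control replicate 4 and 15.3% for treadmill replicate 2. Calls of members that rest on either library are given with and without it, and genes of the pathway lists with all libraries only.

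Most of the set was expressed at a low level in this muscle. Of the 216 genes, 89 were over the limit of detection in all 24 libraries and 41 in none, 72 had a mean of at least 1 FPKM and 13 of at least 10 FPKM. The plot of mean levels by family shows each of them. Among the chemokine receptors Ackr3, a receptor that takes up and removes the chemokine Cxcl12, led with a mean of 28.3 FPKM, followed by Cxcr4 at 3.19 FPKM and Ackr4 at 0.935 FPKM. The receptors for class I and II cytokines were led by the growth hormone receptor Ghr (26 FPKM), the IL-11 receptor Il11ra1 (23.3 FPKM) and the interferon-gamma receptor subunit Ifngr1 (22.6 FPKM). The signalling subunit Il6st, shared by the IL-6 group of cytokines, had a mean of 13.5 FPKM, while its partner Il6r stood at 3.17 FPKM. The gene of Il11ra1 overlaps Ccl27 on the other strand, and the counting was not stated to use strand.

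**Figure D1:**
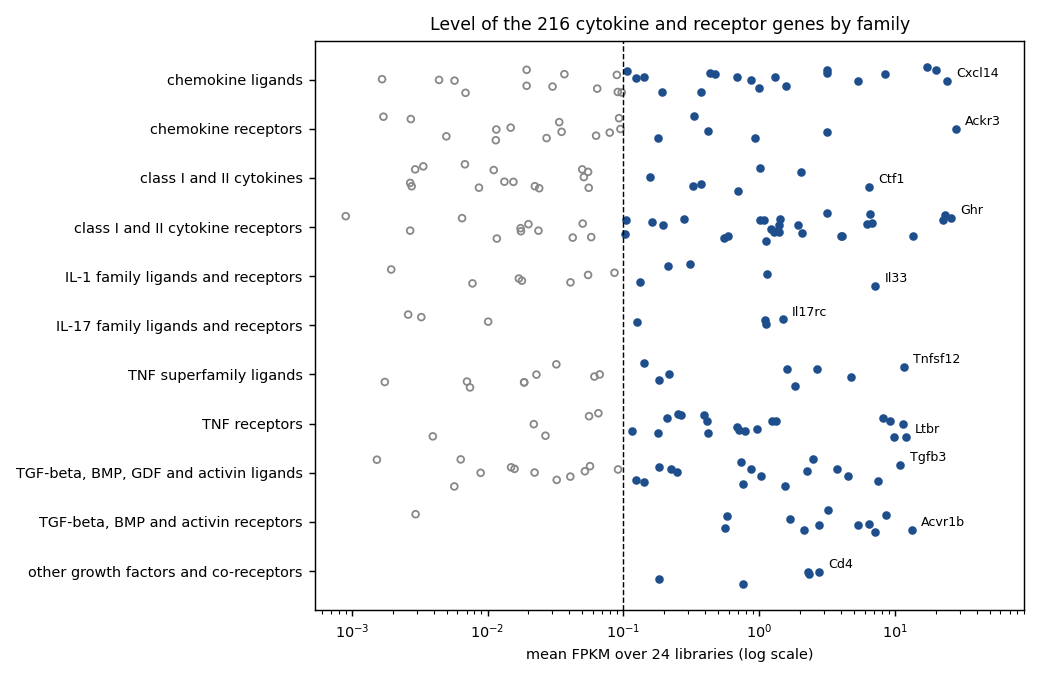
Mean FPKM of each of the 216 genes over 24 libraries (horizontal log axis) by family (rows); filled points are the 128 tested genes, open points fell under the dashed line at 0.1 FPKM, and the highest gene of each family is named. The 13 genes above 10 FPKM include 3 chemokine ligands, 4 receptors of class I and II cytokines and Ackr3, and most class I and II cytokines lie to the left of the line.

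The highest chemokine ligands were Cxcl14 (24.3 FPKM), Ccl21 (20.1 FPKM), which directs lymphocytes and dendritic cells to lymphatic vessels, and Cxcl12 (17.3 FPKM), the partner of Cxcr4 and Ackr3. Of 22 class I and II cytokines only 7 were tested, led by cardiotrophin Ctf1 (6.48 FPKM), the ciliary neurotrophic factor Cntf (2.05 FPKM) and Thpol1 (1.02 FPKM), and 10 were over the limit in no library, among them Epo, Il10, Il13, Il21, Csf2, Csf3 and Ifnb1. Among 12 IL-1 family genes the alarmin Il33 led at 7.2 FPKM, followed by the receptors Il1r1 (1.15 FPKM) and Il1rap (0.309 FPKM), while Il1a was over the limit in no library. The IL-17 family was represented by Il17rc (1.5 FPKM), Il17ra (1.13 FPKM) and Il17d (1.1 FPKM). TNF superfamily ligands were led by Tnfsf12, also called TWEAK (11.6 FPKM), Tnfsf10, also called TRAIL (4.79 FPKM), and lymphotoxin beta, Ltb (2.66 FPKM), and Tnf itself had a mean of 0.0612 FPKM and was not tested. The receptors of the TNF family were led by Ltbr, the receptor of lymphotoxin beta, at 12 FPKM, the TWEAK receptor Tnfrsf12a at 11.5 FPKM and the TNF receptor Tnfrsf1a at 9.78 FPKM. The TGF-beta family was led by Tgfb3 (11 FPKM), Gdf1 (7.52 FPKM), which lies on the same strand as Cers1 and shares its locus, and Tgfb1 (4.5 FPKM), and its receptors by Acvr1b (13.4 FPKM), Acvrl1 (8.65 FPKM) and Tgfbr2 (7.16 FPKM). Among the remaining genes the co-receptor Cd4 stood at 2.75 FPKM, the macrophage growth factor Csf1 at 2.33 FPKM and Il34, which shares the receptor of Csf1, at 2.3 FPKM.

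No member passed an adjusted p of 0.05 in any of the 6 comparisons between groups with edgeR's quasi-likelihood test, adjusted by Benjamini-Hochberg over all tested genes. The smallest adjusted p was 0.354 (Cxcl2) between treadmill and control, 0.109 (Relt) between catgut 1 and treadmill, 0.0663 (Tnfrsf12a) between catgut 2 and treadmill, 0.278 (LOC103694381) between catgut 1 and control, 0.0784 (Bmp2) between catgut 2 and control and 1 (Pf4) between the catgut groups. Among all tested genes the shares that passed were 0.0542%, 0.0474%, 0.237%, 0.0203%, 0.508% and 0.00677% in the same order. At an unadjusted p under 0.05 there were 12, 17, 19, 18, 19 and 3 members of 128, or 9.38%, 13.3%, 14.8%, 14.1%, 14.8% and 2.34%, against 9.12%, 6.93%, 10.7%, 9.84%, 16.4% and 3.26% of all tested genes. DESeq2 gave an adjusted p under 0.05 for 1, 4, 5, 2, 5 and 0 members in that order, and limma on log2(FPKM + 1) for none.

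The study called a gene differentially expressed where the ratio of group means was over 1.5, or under its inverse, and the unadjusted p was under 0.05. That criterion is used below to name members, beside the adjusted p, the exact permutation p on log2(FPKM + 1) or both. It was met by 32 members in 56 pairs of member and comparison. Of the 32, 3 (Cxcl11, Epor and Prlr) reached a mean of 0.1 FPKM only through the group where they were highest, so they had to differ to be tested, and no p is given for them. The counts of members below include them. Against control, the treadmill group was higher in 7 members (5.47%) and lower in 2 (1.56%), where 1.77% and 1.08% of all tested genes were higher and lower. Catgut 1 was higher than treadmill in 3 members (2.34%) and lower in 9 (7.03%), against 1.13% and 1.99% of all genes. Catgut 2 was higher than treadmill in 3 (2.34%) and lower in 7 (5.47%), against 1.96% and 1.79%. Compared with control, catgut 1 was higher in 7 (5.47%) and lower in 8 (6.25%), against 2.32% and 2.3%, and catgut 2 was higher in 4 (3.12%) and lower in 5 (3.91%), against 3.52% and 2.44%. Between the catgut groups 1 member was higher in catgut 2 (0.781%) and none lower, against 0.9% and 0.345%.

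The share of members was above that of all genes most clearly for higher values in treadmill than in control and for lower values in each catgut group than in treadmill, less so in both directions between catgut 1 and control, and close to or below it for higher values in catgut 2. At unadjusted p alone the shares between treadmill and control were 9.38% and 9.12%. All genes were not matched to the members for level. A mean of at least 1 FPKM was reached by 56.2% of tested members and 70.9% of all tested genes. These counts leaned on treadmill replicate 2. Without it the treadmill group was higher than control in 2 members (1.56%, against 1.65% of all genes). Catgut 1 was then lower than treadmill in 4 (3.12%, against 1.55%) and higher in 8 (6.25%, against 1.78%), and catgut 2 was lower in 5 (3.91%, against 1.53%) and higher in 8 (6.25%, against 2.9%). Without control replicate 4, no member was lower in treadmill than in control, against 0.623% of all genes. The median log2 fold change over the 128 members was 0.11 between treadmill and control, -0.16 and -0.10 between catgut 1 or catgut 2 and treadmill, -0.12 and 0.01 between catgut 1 or catgut 2 and control, and 0.08 between the catgut groups, while the median over all tested genes stayed between -0.01 and 0.01. The comparisons with treadmill share its 6 libraries, and those with control share the control libraries. The fitted changes are drawn in the plot of fold changes.

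**Figure D2:**
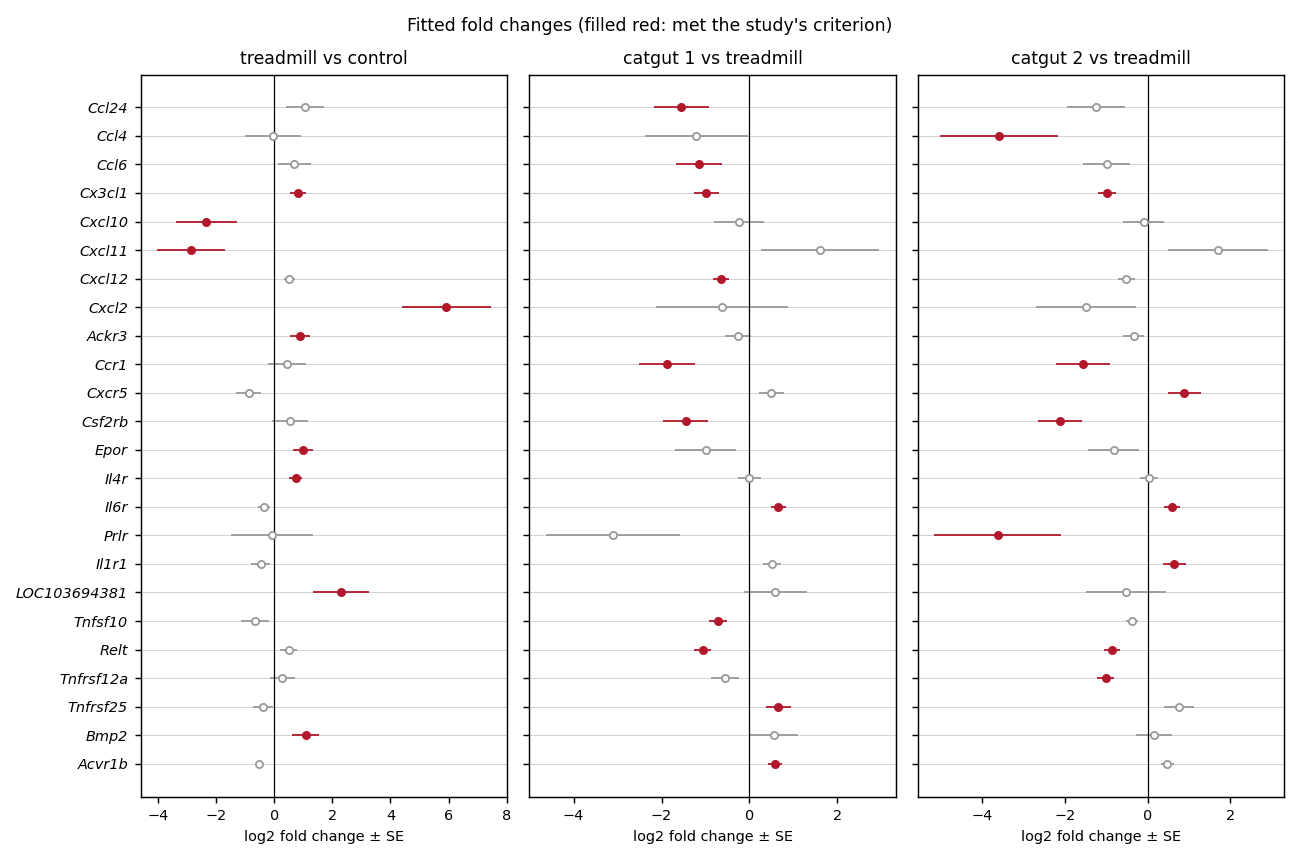
Fitted log2 fold change with its standard error (horizontal axis) of the members named here that met the criterion in at least 1 of the study's 3 comparisons (rows), 6 libraries a group; filled red points met the criterion in that panel. Several members, such as Cx3cl1, lie to the right of 0 in the left panel and to the left of it in the other panels, which share the treadmill libraries. The values of Cxcl2, Cxcl11, Ccl4 and Prlr rest on a group at the limit of detection. Cxcl11, Epor and Prlr passed the filter only through their highest group.

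Among the chemokine ligands, 19 of 31 were tested, and 2 were higher and 2 lower in treadmill than in control. Cxcl2, which draws neutrophils through the receptor Cxcr2, was at 0 FPKM in 5 control libraries and at 0.0577 FPKM in the other. It ranged from 0 to 3.69 FPKM (median 0.141) in treadmill, from 0 to 2.55 FPKM (median 0.0243) in catgut 1 and from 0 to 0.831 FPKM (median 0.104) in catgut 2. In treadmill and catgut 2, 4 of 6 libraries were above every control library, and in catgut 1 2 of 6 were. Over all groups, only 5 libraries were over the limit of detection for Cxcl2. Some of the libraries counted as above control were therefore themselves at or under that limit. All control libraries were under the limit of detection, so only a lower bound of the fold can be given. Cxcl2 was at least 5.23-fold higher in treadmill (p = 0.00207, adjusted p = 0.354, exact permutation p = 0.0281 on log2(FPKM + 1)), at least 3.13-fold higher in catgut 1 (p = 0.011) and at least 1.71-fold higher in catgut 2 (p = 0.00404). These bounds rested on 1 library each. The bound was 1.33 without treadmill replicate 2 (3.69 FPKM) and fell under 1 without catgut 1 replicate 5 (2.55 FPKM) or catgut 2 replicate 2 (0.831 FPKM). Its receptor Cxcr2 had a mean of 0.0337 FPKM and was not tested.

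The interferon-induced chemokines Cxcl9, Cxcl10 and Cxcl11, which attract activated T cells and natural killer cells through Cxcr3, followed 1 library. Cxcl10 was at 9.82 FPKM in control replicate 4 and between 0.0638 and 0.553 FPKM in the other control libraries. It spanned 0.102 to 0.544 FPKM (median 0.279) in treadmill, 0.0572 to 0.49 FPKM (median 0.312) in catgut 1 and 0.13 to 0.777 FPKM (median 0.257) in catgut 2, so all groups overlapped once that library was set apart. The fitted log2 difference from control was -2.34 ± 1.06 (SE) in treadmill (p = 0.0472, exact permutation p = 0.608), -2.57 ± 1.09 in catgut 1 and -2.42 ± 1.05 in catgut 2. Without control replicate 4 these became 0.18, -0.05 and 0.09. Cxcl11 was at 0.97 FPKM in control replicate 4, from 0.0315 to 0.118 FPKM in the other control libraries and between 0 and 0.0818 FPKM in treadmill, where every library was under the limit of detection. It was at least 1.88-fold lower in treadmill, a bound that fell under 1 without control replicate 4. Cxcl9 was highest in the same library, at 13.7 FPKM, and its control median was 2.29 FPKM against 2.59 FPKM in treadmill, 2.6 FPKM in catgut 1 and 2.76 FPKM in catgut 2, with no comparison at an unadjusted p under 0.05. The genes lie next to each other in the table's coordinates, whose build is not given in the sources used here, at chr14:17228856-17234712 (Cxcl9), chr14:17210733-17212930 (Cxcl10) and chr14:17195014-17198291 (Cxcl11), and the latter pair overlap Art3 on the opposite strand. The receptor Cxcr3 had a mean of 0.093 FPKM and was not tested.

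The promoters of these chemokines and of Cxcl2 are shown because each holds the letters of an NF-kB motif, and Cxcl11 those of a STAT motif. NF-kB and STAT factors are the transcription factors through which inflammatory and interferon signals are known to act. The 250 bases before the start of each gene were taken from RefSeq (GRCr8) at chr14:16006916-16007165 (Cxcl9), chr14:15988816-15989065 (Cxcl10), chr14:15973478-15973727 (Cxcl11), all on the plus strand, and chr14:17467256-17467505 (Cxcl2, minus strand), and are printed from 5′ to 3′. Capitals mark a match on either strand to GGNNTTTCC (NF-kB) or TTCNNNGAA (GAS, bound by STAT factors), and no match overlaps another.
Cxcl9: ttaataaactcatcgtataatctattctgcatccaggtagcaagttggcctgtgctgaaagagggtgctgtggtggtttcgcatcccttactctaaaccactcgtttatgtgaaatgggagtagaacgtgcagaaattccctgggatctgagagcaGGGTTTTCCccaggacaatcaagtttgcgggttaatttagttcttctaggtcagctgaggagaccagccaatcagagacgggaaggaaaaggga
Cxcl10: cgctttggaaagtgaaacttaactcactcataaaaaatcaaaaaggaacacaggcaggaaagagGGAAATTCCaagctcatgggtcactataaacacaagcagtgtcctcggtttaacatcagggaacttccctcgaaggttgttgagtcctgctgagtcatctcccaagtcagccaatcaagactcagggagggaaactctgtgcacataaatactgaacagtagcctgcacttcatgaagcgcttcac
Cxcl11: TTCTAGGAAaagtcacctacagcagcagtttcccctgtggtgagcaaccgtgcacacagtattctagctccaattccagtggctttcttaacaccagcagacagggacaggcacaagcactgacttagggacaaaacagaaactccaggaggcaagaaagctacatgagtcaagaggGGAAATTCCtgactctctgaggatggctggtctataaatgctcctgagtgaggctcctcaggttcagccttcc
Cxcl2: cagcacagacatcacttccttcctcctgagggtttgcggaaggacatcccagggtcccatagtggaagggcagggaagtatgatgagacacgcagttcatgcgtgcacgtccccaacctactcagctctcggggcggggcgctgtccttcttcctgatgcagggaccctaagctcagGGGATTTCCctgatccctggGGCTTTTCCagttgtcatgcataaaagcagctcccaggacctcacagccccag

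Cxcl9, Cxcl10 and Cxcl11 each held 1 match to the NF-kB letters, Cxcl2 held 2, and Cxcl11 also held the 1 GAS match among them. Of 168 promoters of 160 members found in RefSeq by symbol, 20 (11.9%) held the NF-kB letters, against 5.19% of all 33469 promoters, and 15 (8.93%) held the GAS letters, against 7.67%. The same search with the AP-1 letters TGANTCA gave 10.7% against 6.34%, with the heat shock letters TTCNNGAA 10.1% against 7.48%, with the glucocorticoid receptor letters ACANNNTGT 3.57% against 5.81%, with the E-box CACGTG 4.17% against 5.59% and with the cyclic AMP element TGACGTCA 0.595% against 1.59%. Of the printed promoters, Cxcl10 and Cxcl11 also held the AP-1 letters, and Cxcl10 the heat shock letters, which are not in capitals. GAS and heat shock matches may overlap in other promoters. A match describes the letters of the window only.

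Cx3cl1, or fractalkine, a chemokine that is tethered to the cell surface, was higher in treadmill than in every other group. It ranged from 0.419 to 1.33 FPKM (median 0.855) in control, from 0.982 to 2.69 FPKM (median 1.3) in treadmill, from 0.33 to 1.11 FPKM (median 0.798) in catgut 1 and from 0.552 to 1.09 FPKM (median 0.719) in catgut 2. Control and treadmill overlapped, 4 of 6 catgut 1 libraries were below every treadmill library, and 5 of 6 catgut 2 libraries were. The log2 difference was 0.81 ± 0.282 (SE) between treadmill and control (p = 0.0132, adjusted p = 0.478), -0.98 ± 0.286 between catgut 1 and treadmill (p = 0.00451, adjusted p = 0.358) and -0.98 ± 0.223 between catgut 2 and treadmill (p = 7.29e-04, adjusted p = 0.104, exact permutation p = 0.00433). Without treadmill replicate 2, the highest at 2.69 FPKM, the difference from control was 0.66 and missed the ratio of 1.5, while the differences of the catgut groups kept the call in every fit that left out 1 library. Against control, the catgut groups differed by -0.17 (adjusted p = 0.914) and -0.18 (adjusted p = 0.813). The receptor Cx3cr1 was over the limit in no library.

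Cxcl12, which holds blood progenitors and guides vessel and muscle precursor cells, took a similar course with smaller differences. Its FPKM was 10.6 to 22 (median 15.4) in control, 16.1 to 32.2 (median 20.2) in treadmill, 7.93 to 21.2 (median 15.6) in catgut 1 and 9.24 to 22 (median 16.2) in catgut 2, and all groups overlapped. On the log2 scale the difference was 0.52 ± 0.188 (SE) between treadmill and control (adjusted p = 0.486, ratio of means 1.41), -0.64 ± 0.182 between catgut 1 and treadmill (adjusted p = 0.356) and -0.51 ± 0.2 between catgut 2 and treadmill (adjusted p = 0.372, ratio 0.714). Only the second met the criterion, and it was lost without any of 4 libraries, namely treadmill replicate 2 (log2 -0.57) or 3 (-0.54) and catgut 1 replicate 1 or 4 (-0.53, without the latter). Ackr3, the scavenger of Cxcl12, had medians of 15 FPKM in control, 31.4 FPKM in treadmill, 31.5 FPKM in catgut 1 and 26.7 FPKM in catgut 2, with a range of 11.2 to 33.1 FPKM in control and 17.9 to 76.2 FPKM in treadmill. The groups overlapped, 3 treadmill libraries exceeded all of the control group, and the log2 difference was 0.87 ± 0.347 (adjusted p = 0.515). Leaving out any of control replicates 3, 4, 5 and 6 or treadmill replicate 2 ended that call, with a log2 difference of 0.60 without the last and 0.78 without control replicate 4. Cxcr4 did not separate the groups (log2 differences from treadmill of -0.39 and 0.00, adjusted p = 0.9 and 1).

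**Figure D3:**
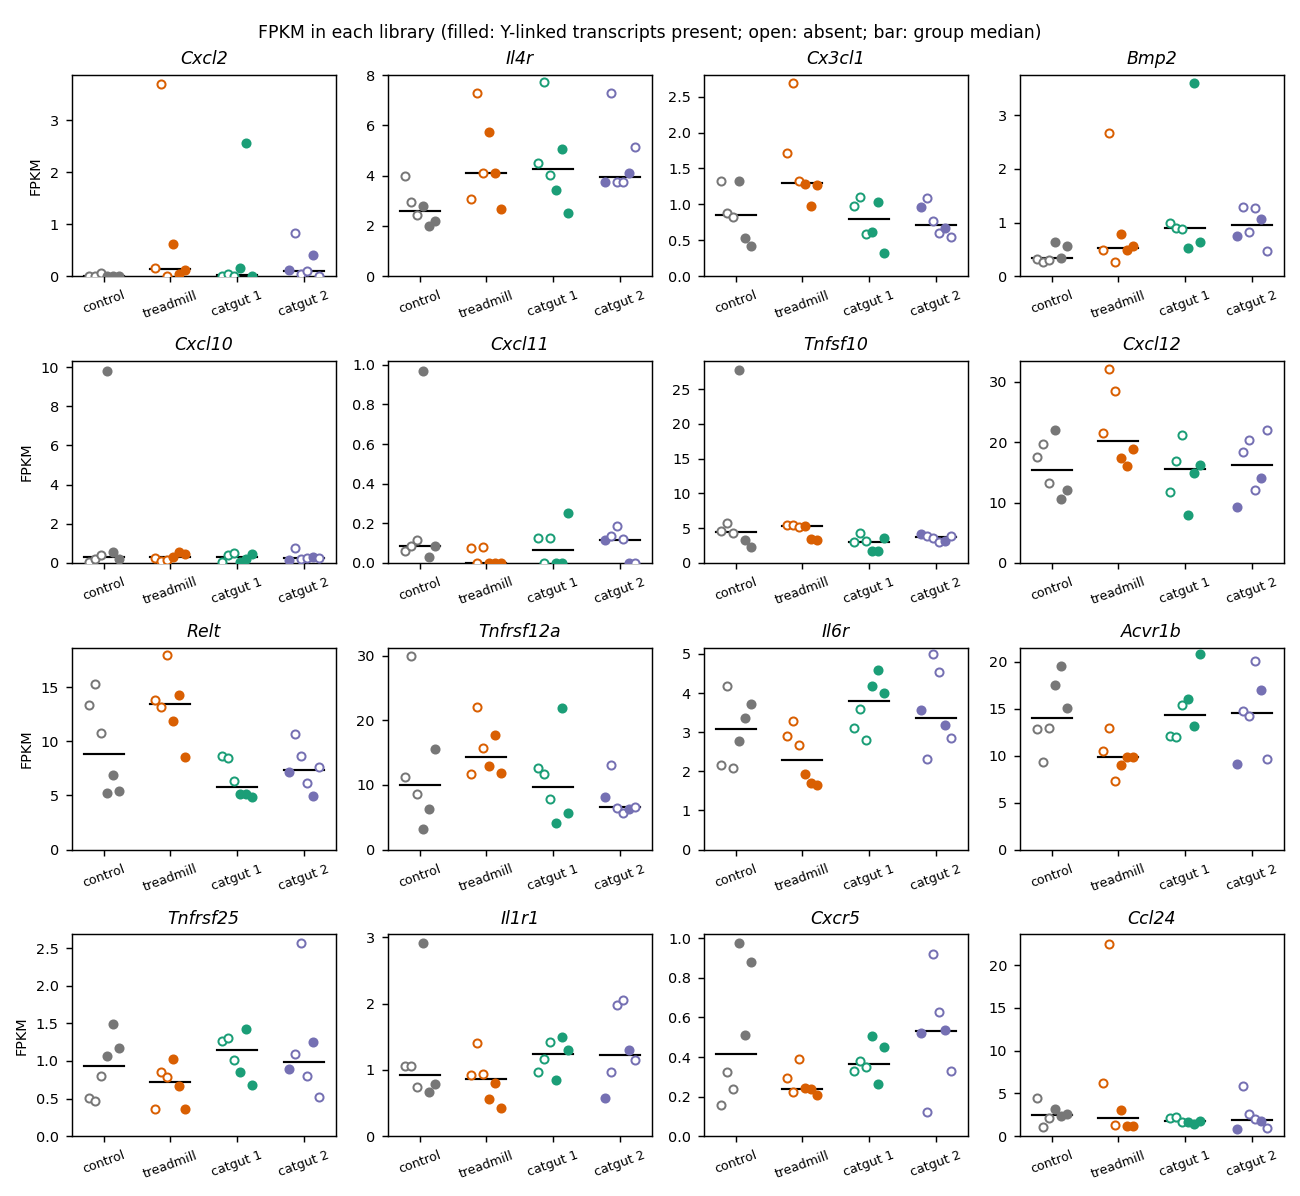
FPKM (vertical axes, linear from 0) of 16 members in each of the 24 libraries by group; filled points are libraries with Y-linked transcripts, open points those without, and bars are group medians. Cxcl2, Cxcl10, Cxcl11, Tnfsf10, Bmp2 and Ccl24 each have 1 or 2 libraries far above the rest, and all but 1 of the catgut 1 libraries lie below every treadmill library in Relt.

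The CC chemokines Ccl24 and Ccl6 met the criterion only as lower in catgut 1 than in treadmill, and both were highest in treadmill replicate 2, the library with the most macrophage marker signal. Ccl24, also called eotaxin-2, ranged from 1.14 to 22.5 FPKM (median 2.16) in treadmill and from 1.42 to 2.25 FPKM (median 1.76) in catgut 1, so the catgut 1 libraries lay inside the treadmill range. Its log2 difference was -1.55 ± 0.632 (SE, p = 0.0292, adjusted p = 0.62, exact permutation p = 0.348), and without treadmill replicate 2 it was -0.51 (p = 0.227). Ccl6 ranged from 1.41 to 23.4 FPKM (median 4.87) in treadmill and from 2.46 to 4.65 FPKM (median 3.81) in catgut 1, with a log2 difference of -1.15 (adjusted p = 0.712) that was -0.65 without treadmill replicate 2. The macrophage markers, 8 of 8 of them tested, summed to 15.4 to 127 FPKM (median 29) in treadmill, 26.3 to 51 FPKM (median 32.7) in catgut 1, 14.7 to 65.7 FPKM (median 32.5) in catgut 2 and 13.1 to 61.3 FPKM (median 34) in control, and none of them met the criterion in any comparison. With all libraries in, the median fitted log2 difference over the 8 markers was 0.47 between treadmill and control. It was -0.41 and -0.39 between catgut 1 or catgut 2 and treadmill, and 0.08 and 0.09 between them and control. In bulk muscle, fewer cells of a type and less RNA per cell cannot be told apart, and the part of macrophage content in the differences of the members was not tested. Treadmill replicate 2 was also highest in summed T cell markers (11.8 FPKM, against at most 7.41 FPKM elsewhere, a list that holds the member Cd4) and in mast cell markers (10.1 FPKM, against at most 4.07 FPKM).

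**Figure D4:**
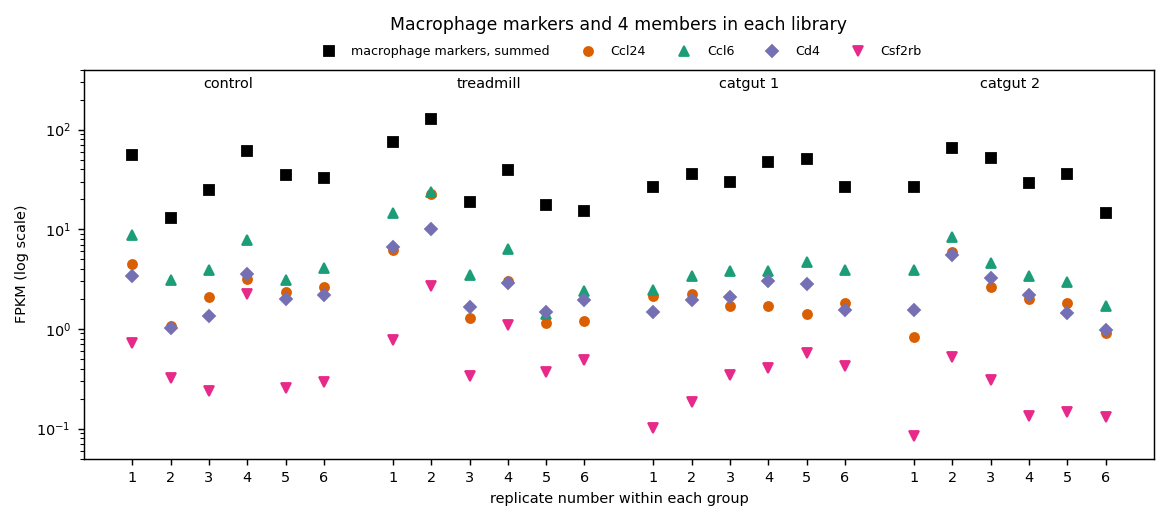
FPKM on a log axis of 8 summed macrophage markers and of the members Ccl24, Ccl6, Cd4 and Csf2rb in each of 24 libraries, by group and replicate number. Treadmill replicate 2 holds the highest macrophage sum (127 FPKM) and the highest value of all 4 members, and treadmill replicate 1 the next highest sum (75.4 FPKM).

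Ccr1, a receptor of inflammatory CC chemokines, had a median under 0.5 FPKM in all groups. Ccr1 ranged from 0.154 to 1.01 FPKM (median 0.365) in control, 0.121 to 1.44 FPKM (median 0.231) in treadmill, 0.069 to 0.28 FPKM (median 0.131) in catgut 1 and 0.0714 to 0.334 FPKM (median 0.177) in catgut 2. It was lower in catgut 1 than in control, with 4 libraries below every control library (log2 -1.46 ± 0.492 SE, p = 0.0111, exact permutation p = 0.0195), and this call was kept in every fit that left out 1 library, with a smallest difference of -0.93 (p = 0.0431) without control replicate 1. The difference was -1.88 ± 0.64 between catgut 1 and treadmill (adjusted p = 0.485), and -1.36 without treadmill replicate 1. Catgut 2 differed by -1.57 from treadmill (adjusted p = 0.4) and by -1.15 from control (adjusted p = 0.278), and the loss of treadmill replicate 1 (-1.05) or control replicate 1 (-0.64), as of 4 and 6 other libraries, ended these calls. Treadmill replicate 2 was among the former, at -1.26 without it. Its ligand Ccl5 did not differ beyond its spread (medians 0.869, 1.17, 1.03 and 1.32 FPKM in control, treadmill, catgut 1 and catgut 2).

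Ccl4, a chemokine that attracts macrophages and T cells, was near the limit of detection throughout. It was listed between 0.152 and 0.368 FPKM in all 6 control libraries and at 0 in 5 of 6 catgut 2 libraries, the other being at 0.0919 FPKM, so the groups did not overlap (p = 9.62e-04, adjusted p = 0.0797, exact permutation p = 0.00216, the smallest these groups can give). Between catgut 2 and treadmill, whose libraries ranged from 0 to 0.825 FPKM, the adjusted p was 0.372, and the criterion was no longer met without treadmill replicate 2. No fold is given since the control mean itself was under the limit. Library totals had a median of 75150847 counts in control and 62100481 in catgut 2, and the part of depth in this separation was not tested. Ccl9 and Cxcl13 were lower in catgut 1 than in control through 1 control library each. Ccl9 was at 1.15 FPKM in control replicate 2 and at most 0.13 FPKM in catgut 1 (adjusted p = 0.477, and outside the criterion without that library), and it was at 1.25 FPKM in treadmill replicate 3. Those are the libraries with liver markers at 237 and 363 FPKM, and the part of that signal was not tested. Cxcl13, the B cell chemokine, was at 3.3 FPKM in control replicate 4 and at most 0.443 FPKM in catgut 1 (log2 -2.25, adjusted p = 0.486, and -1.17, without that library). Its receptor Cxcr5 ranged from 0.209 to 0.391 FPKM (median 0.239) in treadmill and from 0.121 to 0.921 FPKM (median 0.529) in catgut 2, where 4 libraries were above and 1 below every treadmill library. The log2 difference was 0.89 ± 0.398 (SE, adjusted p = 0.438), and the call was lost in 9 of the 12 fits that left out 1 library, with 0.68 without catgut 2 replicate 3 and 0.80 without treadmill replicate 2.

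Pf4, or platelet factor 4, was the only member that met the criterion between the catgut groups. It ranged from 3.85 to 7.64 FPKM (median 6.29) in catgut 1 and from 7.21 to 15.3 FPKM (median 8.61) in catgut 2, and 5 of 6 catgut 2 libraries lay above every catgut 1 library. On the log2 scale the difference was 0.59 ± 0.213 (SE, p = 0.0153, adjusted p = 1, exact permutation p = 0.0108). Without catgut 2 replicate 2 it was 0.45 and missed the ratio, and the call was also lost without catgut 1 replicate 1. In treadmill Pf4 spanned 2.06 to 24.7 FPKM and in control 3.51 to 10.6 FPKM. The summed macrophage markers in catgut 2 replicate 2, the highest Pf4 library of that group, were also the highest of the group at 65.7 FPKM, and their part in the difference was not tested.

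Of 39 receptors for class I and II cytokines 28 were tested. Il4r, the receptor chain for IL-4 and IL-13, was higher than control in all 3 trained groups. Its FPKM was 1.99 to 3.98 (median 2.6) in control, 2.68 to 7.28 (median 4.12) in treadmill, 2.5 to 7.74 (median 4.27) in catgut 1 and 3.76 to 7.3 (median 3.93) in catgut 2. In treadmill and catgut 1, 4 libraries exceeded all of the control group, and in catgut 2 3 did. The log2 difference from control was 0.73 ± 0.227 (SE) in treadmill (adjusted p = 0.426), 0.73 ± 0.244 in catgut 1 (adjusted p = 0.401) and 0.76 ± 0.205 in catgut 2 (adjusted p = 0.12), and these comparisons share the control libraries. Without treadmill replicate 2 the first was 0.61 and missed the ratio, as did the second without catgut 1 replicate 2 (0.53), while the call in catgut 2 was kept in every fit that left out 1 library. The catgut groups differed from treadmill by 0.00 and 0.03. The chains that pair with Il4r, Il2rg and Il13ra1, had no comparison at an unadjusted p under 0.05, and the ligand Il13 was over the limit in no library.

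Il6r, the chain that binds IL-6, was lowest in treadmill. It ranged from 2.08 to 4.17 FPKM (median 3.07) in control, 1.66 to 3.29 FPKM (median 2.29) in treadmill, 2.81 to 4.6 FPKM (median 3.81) in catgut 1 and 2.32 to 4.99 FPKM (median 3.37) in catgut 2. The groups overlapped, with 4 catgut 1 and 3 catgut 2 libraries above every treadmill library. In libraries with Y-linked transcripts Il6r was 1.66 to 1.92 FPKM in treadmill (replicates 4, 5 and 6) and 4.01 to 4.6 FPKM in catgut 1. In those without it was 2.66 to 3.29 and 2.81 to 3.6 FPKM, so the catgut 1 difference lay mostly in the libraries with them. Whether the difference depends on these transcripts was not tested. The log2 difference from treadmill was 0.66 ± 0.172 (SE) in catgut 1 (p = 0.00196, adjusted p = 0.281, exact permutation p = 0.013) and 0.59 ± 0.193 in catgut 2 (p = 0.00918, adjusted p = 0.264). The ratio of means was 1.58 and 1.52, close to the threshold, and it fell below 1.5 without treadmill replicate 5 or 6 in the first comparison and without treadmill replicate 4, 5 or 6 or catgut 2 replicate 3 or 4 in the second, where the log2 difference stayed at or above 0.50. Lifr, the receptor of leukaemia inhibitory factor that signals with the same Il6st subunit, was also higher in both catgut groups, by 0.56 ± 0.125 against treadmill in catgut 1 (adjusted p = 0.18) and 0.52 ± 0.136 in catgut 2 (adjusted p = 0.162), with ratios of 1.49 and 1.46, just under the threshold. Il6st itself differed from treadmill by -0.13 and -0.24 (adjusted p = 0.945 and 0.476). Ifngr1 was higher in catgut 2 than in treadmill by 0.43 (adjusted p = 0.225, ratio 1.37), and Ghr was lower in catgut 2 than in control by 0.53 on the log2 scale (adjusted p = 0.137, ratio 0.702).

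Csf2rb, the shared beta chain of the receptors for IL-3, IL-5 and GM-CSF, ranged from 0.336 to 2.72 FPKM (median 0.634) in treadmill, 0.101 to 0.576 FPKM (median 0.372) in catgut 1, 0.0847 to 0.519 FPKM (median 0.14) in catgut 2 and 0.239 to 2.26 FPKM (median 0.308) in control. In catgut 2, 5 of 6 libraries were below every treadmill library. The log2 difference was -2.11 ± 0.532 (SE, p = 0.00165, adjusted p = 0.146, exact permutation p = 0.0108), and -1.60 (p = 0.00424) without treadmill replicate 2, its highest library. The differences of catgut 1 from treadmill (-1.45, adjusted p = 0.509) and of catgut 2 from control (-1.59, adjusted p = 0.21) each lost the call without 1 library, at -0.93 without treadmill replicate 2 and -0.83 without control replicate 4. The partner chains Csf2ra and Il3ra had no comparison at an unadjusted p under 0.05, and the ligand Csf2 was over the limit in no library. Epor, the erythropoietin receptor, was near the limit, at 0.0402 to 0.123 FPKM (median 0.0814) in control and 0.107 to 0.248 FPKM (median 0.153) in treadmill, with 5 treadmill libraries above every control library. It passed the filter only through the treadmill group, so this difference is a description and not a test. Of 5 erythroid markers 3 were in the table and 2 tested, and both of these met the criterion as higher in treadmill than in control. Their sum ranged from 81.4 to 144 FPKM in control and from 104 to 455 FPKM in treadmill, where the highest sum and the highest Epor value were both in replicate 4, and their part in the difference was not tested. Its ligand Epo was over the limit in no library. Prlr, the prolactin receptor, was at 1.02 FPKM in control replicate 2 and 0.819 FPKM in treadmill replicate 3, the libraries with liver markers, and at most 0.179 FPKM in the other 22 libraries. It was at least 3.21-fold lower in catgut 2 than in control and at least 2.97-fold lower than in treadmill, and both bounds fell under 1 without those libraries, where neither met the criterion. Catgut 1 was also lower than control, which did not hold the criterion without control replicate 2.

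In the IL-1 family 5 of 12 genes were tested, and Il1r1, the receptor of IL-1, met the criterion once. It ranged from 0.431 to 1.4 FPKM (median 0.862) in treadmill and from 0.576 to 2.06 FPKM (median 1.23) in catgut 2, with 2 libraries above every treadmill library. On the log2 scale the difference was 0.65 ± 0.283 (SE, adjusted p = 0.433), and the call was lost in 7 of the 12 fits that left out 1 library, with 0.49 without catgut 2 replicate 4. The accessory chain Il1rap differed by 0.70 ± 0.402 in the same comparison (adjusted p = 0.583). None of 4 tested genes of the IL-17 family and none of 7 tested class I and II cytokines met the criterion in any comparison.

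Relt, a member of the TNF receptor family, had the smallest p of the members between catgut 1 and treadmill and was lower in both catgut groups. The gene lies at chr1:165884407-165901923 in the table's coordinates. Its FPKM was 5.25 to 15.3 (median 8.84) in control, 8.53 to 18 (median 13.5) in treadmill, 4.89 to 8.67 (median 5.78) in catgut 1 and 4.94 to 10.7 (median 7.36) in catgut 2. Only the top catgut 1 library reached into the treadmill range, and 4 of 6 catgut 2 libraries were below it. The log2 difference from treadmill was -1.06 ± 0.196 (SE) in catgut 1 (p = 1.16e-04, adjusted p = 0.109, exact permutation p = 0.00433) and -0.86 ± 0.184 in catgut 2 (p = 4.56e-04, adjusted p = 0.0882, exact permutation p = 0.00649). Both calls were kept in every fit that left out 1 library, with differences between -1.20 and -0.95 and between -0.96 and -0.74. The treadmill group differed from control by 0.49 ± 0.29 (SE), outside the criterion. Within groups Relt also differed with the Y-linked transcripts. In control it was 5.25 to 6.85 FPKM in the 3 libraries with them and 10.8 to 15.3 FPKM in the 3 without, in catgut 1 4.89 to 5.18 and 6.37 to 8.67 FPKM, and in treadmill 8.53 to 14.3 and 13.2 to 18 FPKM. With the summed Y-linked level as a covariate the catgut 1 difference was -1.08 (adjusted p = 0.031) and the catgut 2 difference -0.91.

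Tnfrsf12a, the receptor of TWEAK, which is known to be induced in injured and denervated muscle, was lower in catgut 2 than in treadmill. It ranged from 11.7 to 22.1 FPKM (median 14.3) in treadmill, 5.71 to 13.1 FPKM (median 6.55) in catgut 2, 4.09 to 21.9 FPKM (median 9.75) in catgut 1 and 3.25 to 29.9 FPKM (median 9.96) in control. Of the catgut 2 libraries 5 were below every treadmill library. Control spanned the whole range of both groups, and catgut 1 reached from below the catgut 2 range almost to the treadmill maximum. The log2 difference was -1.01 ± 0.203 (SE, p = 2.62e-04, adjusted p = 0.0663, exact permutation p = 0.00866), and it was between -1.19 and -0.93 when 1 library was left out. Catgut 1 differed from treadmill by -0.56 (adjusted p = 0.829), and the test between the catgut groups gave -0.45 (adjusted p = 1). Its ligand Tnfsf12 differed by 0.01, 0.03 and 0.13 in the study's 3 comparisons (adjusted p = 0.981, 0.993 and 0.816). Tnfrsf25, a receptor found on T cells, was higher in catgut 1 than in treadmill, at 0.686 to 1.42 FPKM (median 1.14) against 0.365 to 1.03 FPKM (median 0.724), with 3 libraries above the treadmill range (log2 0.66 ± 0.291, adjusted p = 0.677), and the call was lost in 7 of 12 fits that left out 1 library, treadmill replicate 2 among them. Its ligand Tnfsf15 was over the limit in no library.

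Tnfsf10, the death ligand TRAIL, was at 27.7 FPKM in control replicate 4, the library with high Cxcl9, Cxcl10 and Cxcl11, and at 2.23 to 5.71 FPKM in the other control libraries. It was 3.34 to 5.41 FPKM (median 5.26) in treadmill and 1.7 to 4.25 FPKM (median 3.08) in catgut 1, where 4 libraries were below every treadmill library. The log2 difference of catgut 1 from treadmill was -0.71 ± 0.21 (SE, adjusted p = 0.358), and the call was lost without catgut 1 replicate 4 or 5 (-0.60, without the latter). Against control it was -1.37 (adjusted p = 0.427), and -0.51 without control replicate 4. Lymphotoxin beta is present in the table as Ltb and as a near copy, LOC103694381, so reads may be split between them, and Ltb overlaps genes of the RT1-CE group on both strands. LOC103694381 was 0 to 0.83 FPKM (median 0.31) in control and 1.19 to 5.63 FPKM (median 2.23) in catgut 1, and these groups did not overlap. On the log2 scale the difference was 2.88 ± 0.729 (p = 0.00168, adjusted p = 0.278, exact permutation p = 0.00216, the smallest possible). Ltb was higher in the same comparison, with medians of 1.57 and 3.09 FPKM (log2 1.31 ± 0.491, adjusted p = 0.427), a call lost without catgut 1 replicate 4. In treadmill LOC103694381 ranged from 0.16 to 4.77 FPKM (log2 2.30 against control, adjusted p = 0.52), and the call was lost without any of 5 libraries, with a log2 difference of 1.64 without treadmill replicate 6 and 2.10 without treadmill replicate 2. The receptor Ltbr showed log2 differences between -0.09 and 0.10 in all 6 comparisons.

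In the TGF-beta, BMP and activin group the ligands that met the criterion were all higher than control. Bmp2, a bone morphogenetic protein that also acts on muscle mass through SMAD factors, ranged from 0.26 to 0.632 FPKM (median 0.331) in control, 0.265 to 2.67 FPKM (median 0.53) in treadmill, 0.523 to 3.59 FPKM (median 0.894) in catgut 1 and 0.464 to 1.29 FPKM (median 0.945) in catgut 2. In each catgut group 5 of 6 libraries lay above every control library. The log2 difference from control was 1.62 ± 0.44 (SE) in catgut 1 (p = 0.00278, adjusted p = 0.303, exact permutation p = 0.00866) and 1.22 ± 0.279 in catgut 2 (p = 8.05e-04, adjusted p = 0.0784, exact permutation p = 0.00866). Both calls were kept in every fit that left out 1 library, and the first was 0.99 without catgut 1 replicate 5, its highest. In treadmill the difference was 1.08 (adjusted p = 0.526) and rested on replicate 2, at 0.47 without it. The receptors Bmpr1a and Bmpr2 had no comparison at an unadjusted p under 0.05.

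Inha and Inhbb, the alpha and beta B subunits of inhibin and activin, were higher in catgut 1 than in control. Inha had medians of 0.488 FPKM in control, 0.933 FPKM in treadmill, 1.31 FPKM in catgut 1 and 1.3 FPKM in catgut 2, and the log2 difference from control was 1.00 ± 0.324 (SE) in catgut 1 (p = 0.00872, exact permutation p = 0.013) and 0.83 ± 0.347 in catgut 2 (p = 0.0326). The former was kept in every fit that left out 1 library and the latter was lost in 7 of 12, with 0.70 without control replicate 2. Inhbb ranged from 0.17 to 0.777 FPKM (median 0.581) in control and from 0.544 to 1.91 FPKM (median 0.929) in catgut 1 (log2 1.07 ± 0.391, adjusted p = 0.416), and the difference was 0.84 without catgut 1 replicate 5. Acvr1b, a receptor for activins and related ligands whose gene overlaps LOC103692984 on the other strand, was lowest in treadmill. It ranged from 9.3 to 19.5 FPKM (median 14) in control, 7.28 to 12.9 FPKM (median 9.87) in treadmill, 12 to 20.8 FPKM (median 14.3) in catgut 1 and 9.13 to 20.1 FPKM (median 14.5) in catgut 2. The log2 difference was -0.52 ± 0.15 between treadmill and control (adjusted p = 0.388, ratio 0.682, outside the criterion), 0.58 ± 0.151 between catgut 1 and treadmill (adjusted p = 0.291, ratio 1.51) and 0.48 ± 0.157 between catgut 2 and treadmill (adjusted p = 0.267, ratio 1.43). The catgut 1 call fell under the ratio in 5 of the fits that left out 1 library, where the smallest difference was 0.46. The TGF-beta receptor Tgfbr1 took the same directions, at -0.47 (adjusted p = 0.486), 0.53 (adjusted p = 0.485) and 0.38 (adjusted p = 0.53). Il16, a ligand of Cd4, was lower in catgut 1 (0.443 to 0.908 FPKM, median 0.519) than in control (0.546 to 1.53 FPKM, median 0.93), by 0.72 ± 0.231 on the log2 scale (adjusted p = 0.384), and missed the ratio without control replicate 4 (-0.59). Cd4 had no comparison at an unadjusted p under 0.05.

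**Figure D5:**
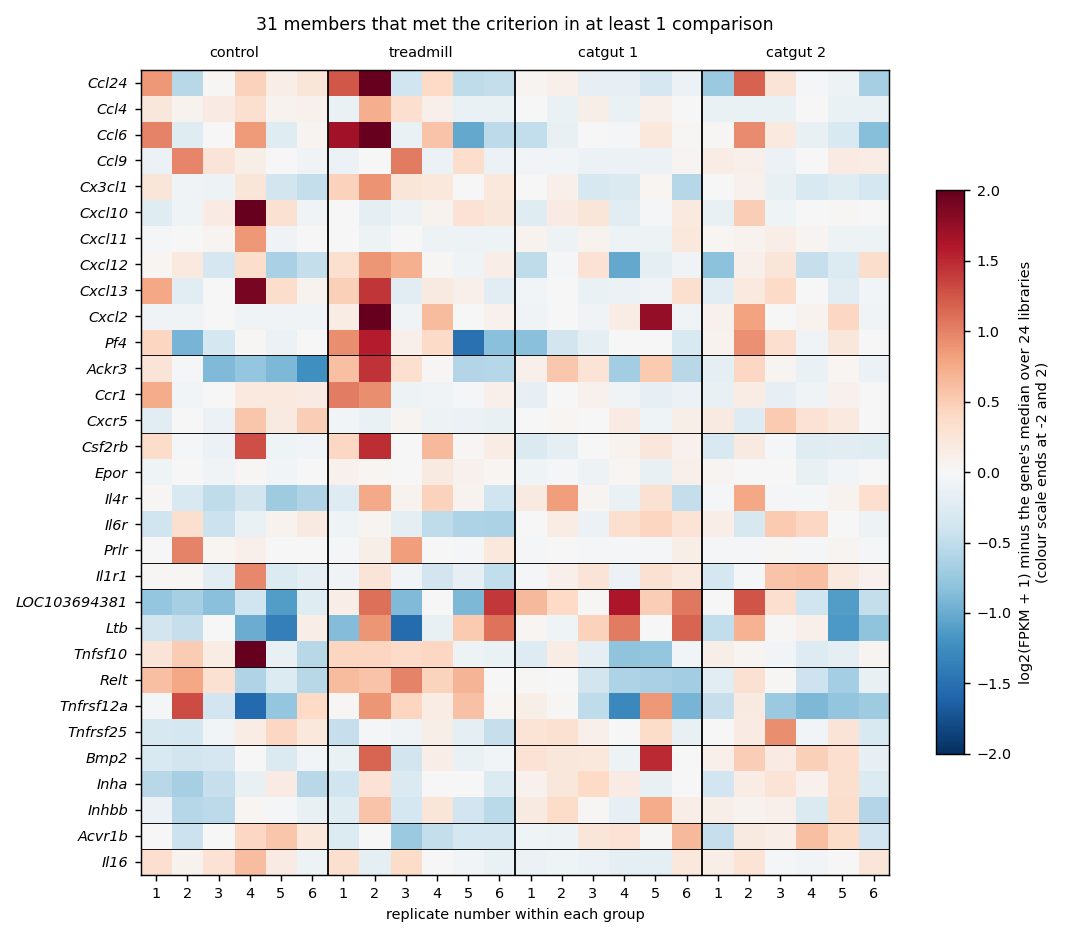
Colour shows log2(FPKM + 1) minus each gene's median over the 24 libraries (scale from -2 to 2) for 31 of the 32 members that met the criterion in at least 1 comparison (rows, grouped by family) in the 24 libraries (columns, by group and replicate number). Control replicate 4 is dark red in Cxcl10, Cxcl13 and Tnfsf10, treadmill replicate 2 in Ccl24, Ccl6, Cxcl2 and several others, and Relt is lower in 5 of 6 catgut 1 libraries than in every treadmill library.

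Genes that carry or answer cytokine signals were counted in lists drawn up for the pathways, with earlier results of these data known. Of all tested genes, 1.77% were higher and 1.08% lower in treadmill than in control. Against treadmill, 1.13% were higher and 1.99% lower in catgut 1, and 1.96% and 1.79% in catgut 2. Against control, 2.32% were higher and 2.3% lower in catgut 1, and 3.52% and 2.44% in catgut 2. Of 24 mediators and targets of JAK-STAT signalling, treadmill was higher than control in Pim1 (log2 1.54, adjusted p = 0.413) and Socs3 (1.37, adjusted p = 0.354), a feedback inhibitor of the IL-6 receptor complex. Socs3 was also higher than control in catgut 1 (1.19, adjusted p = 0.303) and catgut 2 (1.14, adjusted p = 0.124). Against treadmill, 2 were lower in catgut 1 (Socs2 and Jak3) and 2 in catgut 2 (Pim1 at -1.30, adjusted p = 0.277, and Stat5b). Stat5b, which carries growth hormone signals, fell in catgut 2 by 0.76 ± 0.126 on the log2 scale against treadmill (adjusted p = 0.0343) and by 0.66 ± 0.118 against control (adjusted p = 0.0392), and Socs7 fell against control by 0.63 ± 0.113 (adjusted p = 0.0392). In catgut 2 Socs4 was higher (0.58, adjusted p = 0.276), and Jak3 lower, than in control (-1.15, adjusted p = 0.185), and Jak3 was lower in catgut 1 than in control too (-1.31, adjusted p = 0.401). No gene of the list met the criterion between the catgut groups. Jak3 was highest in control replicate 4 (0.942 FPKM) and, within treadmill, in replicate 2 (0.673 FPKM). Pim1 was highest in treadmill replicate 2 (21.8 FPKM). How far the differences of both genes rest on those libraries was not tested. The median of the list was between -0.11 and -0.01 in all 6 comparisons.

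Among 27 genes of NF-kB signalling, treadmill was higher than control in Nfkbiz (log2 1.79, adjusted p = 0.337) and Tnfaip3 (0.67, adjusted p = 0.49), both induced inhibitors or modulators of NF-kB, and Tnfaip3 was lower in catgut 1 than in treadmill (-0.97, adjusted p = 0.126). Nfkbiz and the inhibitor Nfkbia were higher than control in both catgut groups (Nfkbiz 1.54 and 1.38, Nfkbia 0.70 and 0.78). No gene of this list met the criterion between catgut 2 and treadmill. The medians lay between -0.09 and 0.09. Of 22 tested genes of TGF-beta and BMP signalling, Bambi, a decoy receptor, was higher in treadmill than in control (0.87 ± 0.174 SE, adjusted p = 0.179). Smad7 and Bambi were among those higher in catgut 2 than in control (0.61, adjusted p = 0.142, and 0.69, adjusted p = 0.175), and Smad7 among those higher in catgut 1 (0.64), with Id2 lower (-0.96, adjusted p = 0.351) and lower also than in treadmill (-0.78, adjusted p = 0.718). The medians of this list were between -0.09 and 0.15.

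Glucocorticoids are known to restrain many cytokine genes, and 13 genes of their response were tested. Catgut 1 was higher than treadmill in 5 of 13 (Tsc22d3, Cebpd, Ddit4, Per1 and Zbtb16), where 1.13% of all tested genes were higher. The median log2 difference over the list was 0.53 against -0.01 over all genes, and Tsc22d3 rose by 0.91 ± 0.108 (SE, adjusted p = 0.00901). Catgut 2 was higher than treadmill in 3 of 13 (Tsc22d3 at 1.04, adjusted p = 0.0901, Per1 at 0.92 and Ddit4 at 0.90), against 1.96% of all tested genes, with a median of 0.23. Against control, catgut 1 was higher in 5 (Dusp1, Sgk1, Cebpd, Mt2A and Nfkbia) and catgut 2 in 3 (Dusp1, Sgk1 and Nfkbia), with medians of 0.55 and 0.43. Of all tested genes 2.32% and 3.52% were higher in these comparisons. Treadmill was higher than control in Sgk1 (1.22, adjusted p = 0.166) and Dusp1 (1.13, adjusted p = 0.388) and lower in Ddit4 (-1.13, adjusted p = 0.52). Between the catgut groups Cebpd was lower in catgut 2 (-0.65, adjusted p = 1). Nfkbia is on this list and on that of NF-kB. Whether these genes and the cytokine genes are linked was not tested.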

How the data were processed

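Poly(A) RNA of quadriceps was sequenced in 24 libraries. The authors deposited 1 table with whole-number counts and FPKM per gene. HISAT2 2.0 and StringTie 1.3.0 are named in the submitters' processing notes, with no role, and the genome build and strand setting are not given in the sources used here. Columns of the authors' own comparisons, which hold fold changes and p-values, were not used. Extraction is described for adipose tissue in 1 label, against quadriceps elsewhere.

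Each comparison's 12 libraries were fitted alone with edgeR 4.0.16 (R 4.3.3) on the deposited counts, with TMM scaling and the two-sided quasi-likelihood test, for 14772 genes with a mean of at least 0.1 FPKM, and p-values were adjusted by Benjamini-Hochberg over all of them. The fit was tested on simulated data. Nothing in the labels says more than that the 6 samples of a group are separate, so p-values measure the spread between these samples. Exact permutation tests, two-sided, used the 924 arrangements of log2(FPKM + 1), with a smallest p of 0.00216. Values at or under the limit of 12 counts in a whole group were given as bounds against that limit.

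Members named, beside 1 that is not reported here, are all that met the study's criterion in its 3 comparisons, the 3 of smallest p in each direction in the others, the 3 highest of each family and their known partners. Members and lists were chosen with earlier results of these data known. Alternatives were no filter, a mean of at least 1 FPKM, median-ratio scaling, DESeq2 1.42.0, limma 3.58.1, 1 fit over all groups, a replicate block, the Y-linked level as covariate and each library left out. Leaving out control replicate 4 and treadmill replicate 2 together was added after seeing the data. Depth is given by library totals of 45945938 to 78278080 counts, and bounds cover counting error only.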

Additional observations from a re-analysis of the deposited data

Results flagged for a closer look

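In each group of 6 libraries, the gap between the highest or lowest library and its nearest neighbour was compared with the range of the group by Dixon's ratio. Of 124 sets of a gene and a group, 29 were marked, all by their highest library, where chance marks about 1 in 20 if values are normally distributed. These are FPKM values, which are skewed to the right, of members that had met the criterion, so more high marks than that are no result. Control replicate 4 accounted for 6, and treadmill replicate 2 and catgut 2 replicate 2 for 5 each.

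Control replicate 4 stood apart in Cxcl10 (9.82 FPKM), Cxcl11 (0.97 FPKM), Cxcl13 (3.3 FPKM), Tnfsf10 (27.7 FPKM), Il1r1 (2.92 FPKM) and Csf2rb (2.26 FPKM). Treadmill replicate 2 stood apart in Cxcl2 (3.69 FPKM), Ccl24 (22.5 FPKM), Csf2rb (2.72 FPKM), Cxcl13 (2.11 FPKM) and Bmp2 (2.67 FPKM). Catgut 2 replicate 2 was highest of its group in Ackr3 (37 FPKM), Ccl24 (5.92 FPKM), Cxcl10 (0.777 FPKM), Pf4 (15.3 FPKM) and Tnfrsf12a (13.1 FPKM).

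Control replicate 2 held Ccl9 at 1.15 FPKM and Prlr at 1.02 FPKM, and treadmill replicate 3 held them at 1.25 and 0.819 FPKM. Catgut 1 replicate 5 held Bmp2 at 3.59 FPKM and Cxcl2 at 2.55 FPKM, and catgut 1 replicate 6 held Cxcl13 at 0.443 FPKM, Il16 at 0.908 FPKM and Prlr at 0.102 FPKM. The others were Ccr1 in control replicate 1 (1.01 FPKM), Cxcl2 in control replicate 3 (0.0577 FPKM), Tnfrsf25 in catgut 2 replicate 3 (2.57 FPKM) and Ccl4 in catgut 2 replicate 4 (0.0919 FPKM).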

How the results depend on the processing

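Of 56 calls, 18 kept the criterion whichever library was left out, 22 under all other settings that tested them and 13 in all of these. Where a call changed, the cause was not tested, except that fewer or more genes are tested when the filter moves. Median-ratio scaling left the median of all genes between -0.01 and 0.01.

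With no filter the members higher and lower numbered 15 higher in treadmill than control, 5 and 18 in catgut 1 against treadmill, 6 and 15 in catgut 2 against treadmill and 3 and 2 in catgut 2 against catgut 1. Among all genes 421, 461, 555 and 184 met the criterion in either direction in these comparisons in the main fit. With no filter 791, 928, 1039 and 578 did. With a mean of at least 1 FPKM the members were 3 and 0 (treadmill against control), 5 lower (catgut 1 against treadmill), 2 lower (catgut 2 against treadmill), 4 and 1 (catgut 1 against control) and 2 and 0 (catgut 2 against control). All genes meeting the criterion in either direction then numbered 240, 205, 292, 362 and 536. The main fit gave 682 and 880 for catgut 1 and catgut 2 against control. limma gave 0 lower in treadmill than control, 4 lower in each catgut group than treadmill, 3 and 1 lower in catgut 1 and catgut 2 than control, and 2 higher and 1 lower between the catgut groups. Of all genes, limma called 399, 354, 517, 556, 845 and 231 in either direction in that order. DESeq2 gave 0 lower in treadmill than control and 1 lower in catgut 2 than catgut 1, where it called 466 and 199 of all genes. The fit over all groups gave 5 lower in catgut 1 than control and 0 higher in catgut 2 than catgut 1, and the Y-linked covariate 0, 4 and 2 lower in treadmill, catgut 1 and catgut 2 than control. Of all genes, the former called 720 and 161 in either direction and the latter 411, 655 and 829. These counts show how calls moved and are no result about the members. Without control replicate 4 and treadmill replicate 2, treadmill was higher than control in 4 and lower in 1.

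Leaving out 1 library gave 2 to 9 higher and 0 to 4 lower (treadmill against control), 1 to 8 and 4 to 15 (catgut 1 against treadmill), 0 to 8 and 5 to 11 (catgut 2 against treadmill), 6 to 9 and 4 to 9 (catgut 1 against control), 3 to 7 and 3 to 7 (catgut 2 against control) and 0 to 3 and 0 to 3 (catgut 2 against catgut 1). Shares over all genes are given above for some of these fits only, so the ranges are no result about the members. The log2 difference of Cxcl10 from control ranged from -2.59 to 0.18 in treadmill and from -2.86 to 0.09 in catgut 2 when 1 library was left out, with the change of sign without control replicate 4, and was 0.37 in treadmill with treadmill replicate 2 also out.

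Deviations of same-numbered libraries correlated between -0.447 and 0.273. Libraries of unlike number were not compared, so these values cannot tell whether replicate numbers pair the samples. Replicates 4, 5 and 6 held the Y-linked transcripts in control, treadmill and catgut 1. With the replicate block, 0 members were lower in treadmill than control, 5 and 4 lower in catgut 1 and catgut 2 than treadmill, 3 and 2 lower in them than control, and 2 higher and 1 lower in catgut 2 than catgut 1. Of all genes, 352, 372, 483, 528, 759 and 188 met the criterion in either direction in that order.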

Other observations

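Y-linked transcripts were present in some libraries of each group, and the values of the members with and without them are given as a description. In control, 16 of 128 members (12.5%) were higher in every library with them than in every library without, against 8.71% of tested genes, and 3 (2.34%) were lower, against 6.21%. The 16 included the receptors Ifngr1, Tgfbr1, Tgfbr2 and Acvr1b, and the 3 were Ccl1, Gdf15 and Relt. In treadmill the direction was the other way, with 1 member (0.781%, Cxcl10) higher, against 1.58% of genes, and 21 (16.4%) lower, against 12.4%, among them Cxcl12, Cx3cl1, Ackr3, Il6r and Lifr. In catgut 1, 7 members (5.47%) were higher, against 2.99% of genes, and 5 (3.91%) lower, against 5.52%. The 7 included Il6r, which went the other way in treadmill, and the 5 included Relt. In catgut 2, with 2 libraries against 4, 3 members (2.34%) were higher, against 2.79%, and 8 (6.25%) lower, against 14.4%. No member was separated completely in the same direction in control, treadmill and catgut 1, where 0.0609% of genes were higher and 0.278% lower in all 3.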
